A study of Mus musculus with 18 samples.

Results

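Mouse bone marrow-derived macrophages were given reconstituted high-density lipoprotein (rHDL) and then lipopolysaccharide (LPS), with no cholesterol loading, and their RNA was sequenced beside that of cells given LPS alone. Libraries were taken by their labels: 3 of cells given rHDL then LPS (rHDL cells below) and 3 of cells given LPS with no rHDL (LPS-only cells), 6 of the 18 libraries of the series. The cells of both groups came from C57BL/6J mice with no genetic change named, were differentiated for 7 days in medium conditioned by L929 cells, and were moved to medium without serum before treatment on day 8. The rHDL, CSL111, holds APOA1 with soybean phosphatidylcholine at a ratio of 1 to 150. It stayed on the cells for 20 h, and then they were washed and given LPS, whose dose and duration are not stated in the labels. The other groups, with 3 libraries each, were loaded cells given rHDL then LPS, loaded cells given LPS, and, in a table of their own, cells given LPS and untreated cells. Every rHDL group also received LPS, so differences that rHDL made before LPS cannot be told apart from a changed LPS response. The labels do not say whether replicates were separate cultures or animals, so the p-values measure the spread between these libraries.

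HDL takes up cholesterol that macrophages export through the transporters ABCA1 and ABCG1. Cells read their sterol content through a pair of systems: SREBP2 turns on sterol synthesis and uptake genes when membrane cholesterol is low, and the LXR receptors turn on export genes when oxysterols are high. LPS is sensed by TLR4, which signals through MYD88 to cytokine genes and through TRIF to interferon beta, and interferon beta acts back on the cells to raise antiviral, guanylate-binding and antigen-presenting genes.

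Total counts were 12666846 to 15607889 in the rHDL libraries and 9528888 to 11106817 in the LPS-only libraries, so every rHDL library was the deeper. Levels are given as CPM, counts per 1000000 after scaling of the libraries by TMM. Pearson's r of log2 CPM was at least 0.992 within the rHDL group and 0.991 within the LPS-only group, and 0.965 to 0.981 between them. The summed level of macrophage markers was 7465 to 7792 CPM in rHDL cells and 9586 to 9629 CPM in LPS-only cells. Itgam and Cebpa of that list were at 0 counts in every library. Transcripts with no exon base of their own held no reads in these counts, so 0 counts here or below need not mean absent RNA. Whether this holds for these markers was not tested. Neutrophil markers summed to 3.23 to 5.15 CPM in rHDL cells and 13.1 to 16.0 CPM in LPS-only cells, with 5 of 10 at 0 counts (S100a9, Elane, Mpo, Retnlg and Cxcr2). Dendritic cell markers summed to 355 to 444 CPM in rHDL cells and 476 to 535 CPM in LPS-only cells, and lymphoid markers to 3.16 to 3.41 CPM in rHDL cells and 3.30 to 4.79 CPM in LPS-only cells. Markers of stromal and endothelial cells summed to 108 to 135 CPM in rHDL cells and 57.9 to 60.7 CPM in LPS-only cells, nearly all of it Vwf, while markers of mast, erythroid and megakaryocytic cells summed to 32.4 to 43.5 CPM in rHDL cells and 54.5 to 61.4 CPM in LPS-only cells. Their part in the results was not tested. In RNA from whole cultures, fewer cells of a type and less RNA per cell cannot be told apart.

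rHDL before LPS changed genes over the whole range of expression, in both directions. Of 8965 genes tested with edgeR's quasi-likelihood test, 3275 (36.5%) passed a Benjamini-Hochberg adjusted p of 0.05, 1621 (18.1%) higher and 1654 (18.4%) lower in rHDL cells. The counts of called members of gene lists below are to be read against these shares. The falls were the larger: 449 genes fell at least 2-fold and 245 rose at least 2-fold, and 81 fell at least 4-fold against 20 that rose as much. The split of calls depends on the scaling, and the TMM factors were 1.01 to 1.07 in rHDL libraries and 0.934 to 0.992 in LPS-only libraries. Scaled by library totals, the median log2 change of all genes was 0.14 in place of 0.03, a shift of 0.115, and 2507 genes were higher and 1273 lower, so that 66.3% of calls were rises in place of 49.5%. The groups did not overlap in 4610 of the 8965 tested genes (51.4%), which include 3215 of the 3275 called genes and 1395 of the 5690 genes that were not called (24.5%). A called gene named below overlaps between groups only where this is said. Of the 1609 genes in the authors' deposited table for this comparison, 1424 were tested here, and all 1424 had the same direction. That table comes from the same libraries and lists only genes past a threshold, so the shared direction is no separate evidence.

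**Figure D1:**
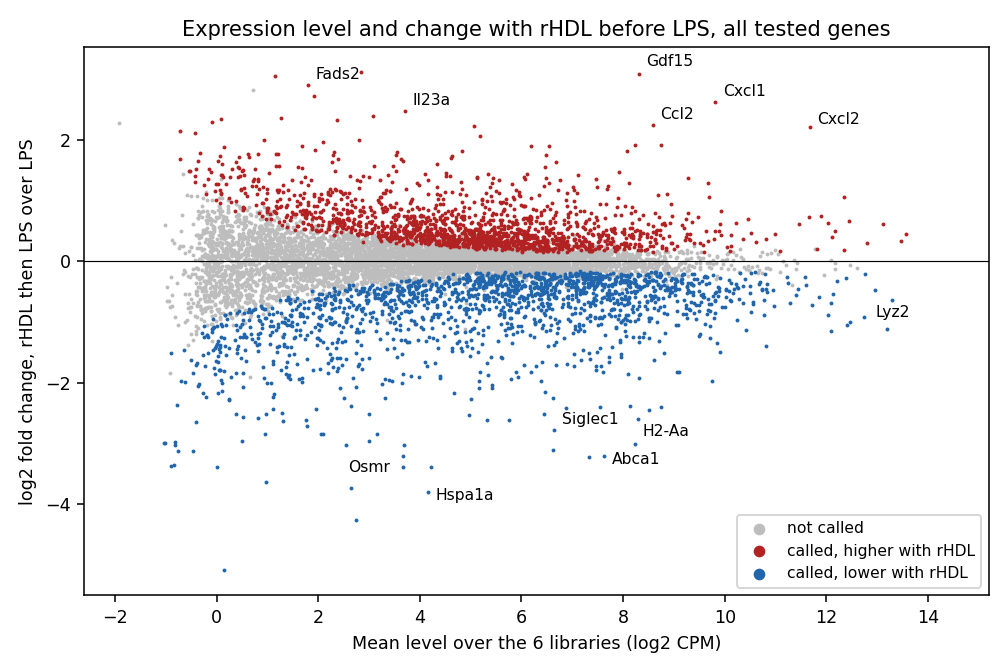
Mean level of each tested gene over the 6 libraries (log2 CPM, horizontal) against its log2 fold change in rHDL cells over LPS-only cells (vertical), with called rises in red, called falls in blue and other genes in grey. The 1621 rises and 1654 falls spread over all levels, and more of the points beyond 2 on the log2 scale are falls (81) than rises (20).

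The 12 largest rises among genes with a mean log2 CPM of 3 or more held 4 chemokines (Cxcl1, Cxcl2, Cxcl3 and Ccl2), a cytokine subunit and a stress hormone. Gdf15, a stress-induced hormone of the TGF-beta superfamily that lies on chromosome 8 (mm10, 70629394 to 70631635), had 916, 913 and 966 CPM in rHDL cells, against 88.1, 124 and 114 CPM in LPS-only cells. That is an 8.57-fold rise, a log2 fold change of 3.10 ± 0.12 (standard error, as after every log2 value here; adjusted p = 8.64e-10). The 3 rHDL libraries lay close together and far above every LPS-only library. Il23a, the subunit particular to interleukin-23, had 21.2, 44.1 and 27.8 CPM in rHDL cells and 5.96, 5.54 and 5.12 CPM in LPS-only cells (2.48 ± 0.25). Its 3 rHDL libraries differed among themselves by more than its LPS-only libraries did. Npy, which encodes the signalling peptide neuropeptide Y, averaged 73.7 ± 0.394 CPM in rHDL cells and 17.5 ± 1.45 CPM in LPS-only cells (SD, n = 3 each). The others were Aldoc (2.40 ± 0.16), an aldolase best known from brain, Plxna2 (2.23 ± 0.17), a semaphorin receptor, Fam20c (1.93 ± 0.14), a kinase of secreted proteins, Rps6ka2 (1.90 ± 0.12), a kinase downstream of ERK, and Dusp4 (1.90 ± 0.17), a phosphatase of MAP kinases.

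The 12 largest falls, taken by the same rule, included sterol exporters, MHC class II genes, heat shock proteins, receptors and the chemokine gene Ccl24. Hspa1a and Hspa1b, near-identical genes for the inducible chaperone HSP70, fell most of these. Hspa1a had 5.37, 4.52 and 4.21 CPM in rHDL cells, against 48.4, 73.6 and 78.1 CPM in LPS-only cells (-3.82 ± 0.20), and Hspa1b changed by -3.40 ± 0.20. Reads common to both cannot be assigned, so the pair is better read as 1 measurement. Osmr, the oncostatin M receptor subunit (chromosome 15, 6813577 to 6874313), had 5.18, 3.69 and 3.39 CPM in rHDL cells and 44.0, 32.2 and 39.0 CPM in LPS-only cells, 9.28-fold lower (-3.21 ± 0.19). Hpgd, which inactivates prostaglandins, changed by -3.04 ± 0.25, and Ms4a6b, a membrane protein of the MS4A family, by -2.61 ± 0.19. That the groups do not overlap in these genes follows from the rule, which took only such genes.

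**Figure D2:**
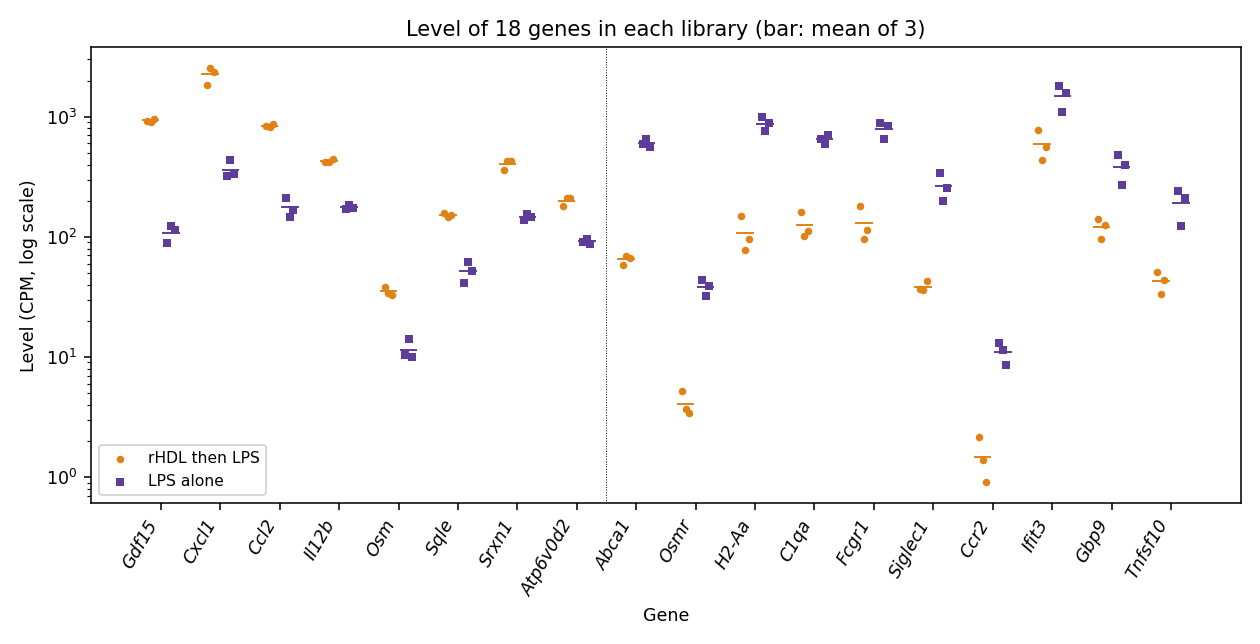
Level (CPM, log scale) of 18 genes in each of the 3 libraries of rHDL cells (orange circles, left) and of LPS-only cells (purple squares, right), with a bar at each mean. The 8 genes left of the dotted line are higher and the 10 right of it lower in rHDL cells. Gdf15 sits between 913 and 966 CPM in rHDL cells and between 88.1 and 124 CPM in LPS-only cells. No gene's groups overlap, but the genes were picked from the called ones, of which 3215 of 3275 do not overlap (51.4% of all tested genes).

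Sterol synthesis genes rose and sterol export genes fell. Of the 8 measured genes from acetyl-CoA to squalene 6 rose and 0 fell, with a median log2 change of 1.08, and all 11 measured genes from squalene to cholesterol rose (median 1.39, against 0.03 over all tested genes). Early in the pathway stand Idi1, the isopentenyl diphosphate isomerase (1.42 ± 0.14), and Fdft1, squalene synthase (1.35 ± 0.12). Sqle, squalene monooxygenase, which opens the later stretch, had 157, 147 and 153 CPM in rHDL cells and 41.2, 62.3 and 51.7 CPM in LPS-only cells (1.56 ± 0.12). The late enzymes spread from Tm7sf2, a sterol reductase (1.77 ± 0.18), and Lss, lanosterol synthase (1.70 ± 0.17), to Ebp, a sterol isomerase (0.46 ± 0.12). Between them lay Msmo1, a methylsterol oxidase (1.43 ± 0.12), and Cyp51, lanosterol demethylase (1.20 ± 0.10). Insig1, which holds SREBP in the endoplasmic reticulum, rose by 1.25 ± 0.07, Stard4, a sterol carrier, by 1.10 ± 0.15, and Srebf2, the gene of SREBP2, by 0.30, a call that was lost without LPS-only library 1 (adjusted p = 0.07).

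Of 12 measured LXR receptors and targets, 8 fell and 0 rose (median -1.02). Abca1 had 58.0, 69.7 and 67.3 CPM in rHDL cells, against 591, 654 and 563 CPM in LPS-only cells, and Abcg1 21.4, 21.9 and 22.1 CPM in rHDL cells, against 139, 128 and 133 CPM in LPS-only cells. These exporters were 9.28-fold and 6.13-fold lower. Mylip, an E3 ligase that removes lipoprotein receptors, fell by 1.49 ± 0.09 on the log2 scale, and Pltp, the phospholipid transfer protein, by 1.23 ± 0.06. Ch25h, which makes 25-hydroxycholesterol, had 128, 89.0 and 94.3 CPM in rHDL cells and 382, 319 and 333 CPM in LPS-only cells (-1.73 ± 0.15), and Cyp27a1, which makes 27-hydroxycholesterol, changed by -0.99 ± 0.12. Gramd1b, a carrier of cholesterol from the plasma membrane to the endoplasmic reticulum, rose by 0.92 ± 0.08.

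Other lipid genes moved in both directions. Of 10 measured genes of fatty acid synthesis and desaturation 7 rose and 1 fell, and 4 rose when LPS-only library 1 or rHDL library 3 was left out. Fads2, a desaturase of polyunsaturated fatty acids, had 8.66, 9.68 and 8.81 CPM in rHDL cells and 1.28, 0.636 and 1.74 CPM in LPS-only cells (2.92 ± 0.24), Fasn, fatty acid synthase, changed by 1.64 ± 0.24, and Fads1 by 1.03 ± 0.14. Of 14 phospholipid genes 1 rose, Pcyt2 of phosphatidylethanolamine synthesis (1.03 ± 0.10), and 6 fell, 3 without LPS-only library 1, while scaling by library totals gave 4 of each. Those that fell included Pla2g4a, the phospholipase that frees arachidonate (-1.04 ± 0.08), and Lpcat1, a lysophospholipid acyltransferase (-1.01 ± 0.09). Of 15 sphingolipid enzymes 8 rose and 2 fell, with 1 fall when LPS-only library 1 or 3 or rHDL library 1 or 3 was left out: Degs1 (0.50 ± 0.06), which makes ceramide, Ugcg (0.70 ± 0.09), which glucosylates it, and Sgms2 (0.83 ± 0.12), a sphingomyelin synthase, rose, and Cers6, a ceramide synthase, fell (-0.72 ± 0.09). The lipid droplet coats Plin2 (0.80 ± 0.08) and Plin3 (0.74 ± 0.08) rose, Dgat2, which makes triglyceride, fell (-1.42 ± 0.14), and the fatty acid carrier Fabp4 (0.93 ± 0.11) and the receptor Ppard (0.98 ± 0.19) rose.

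**Figure D3:**
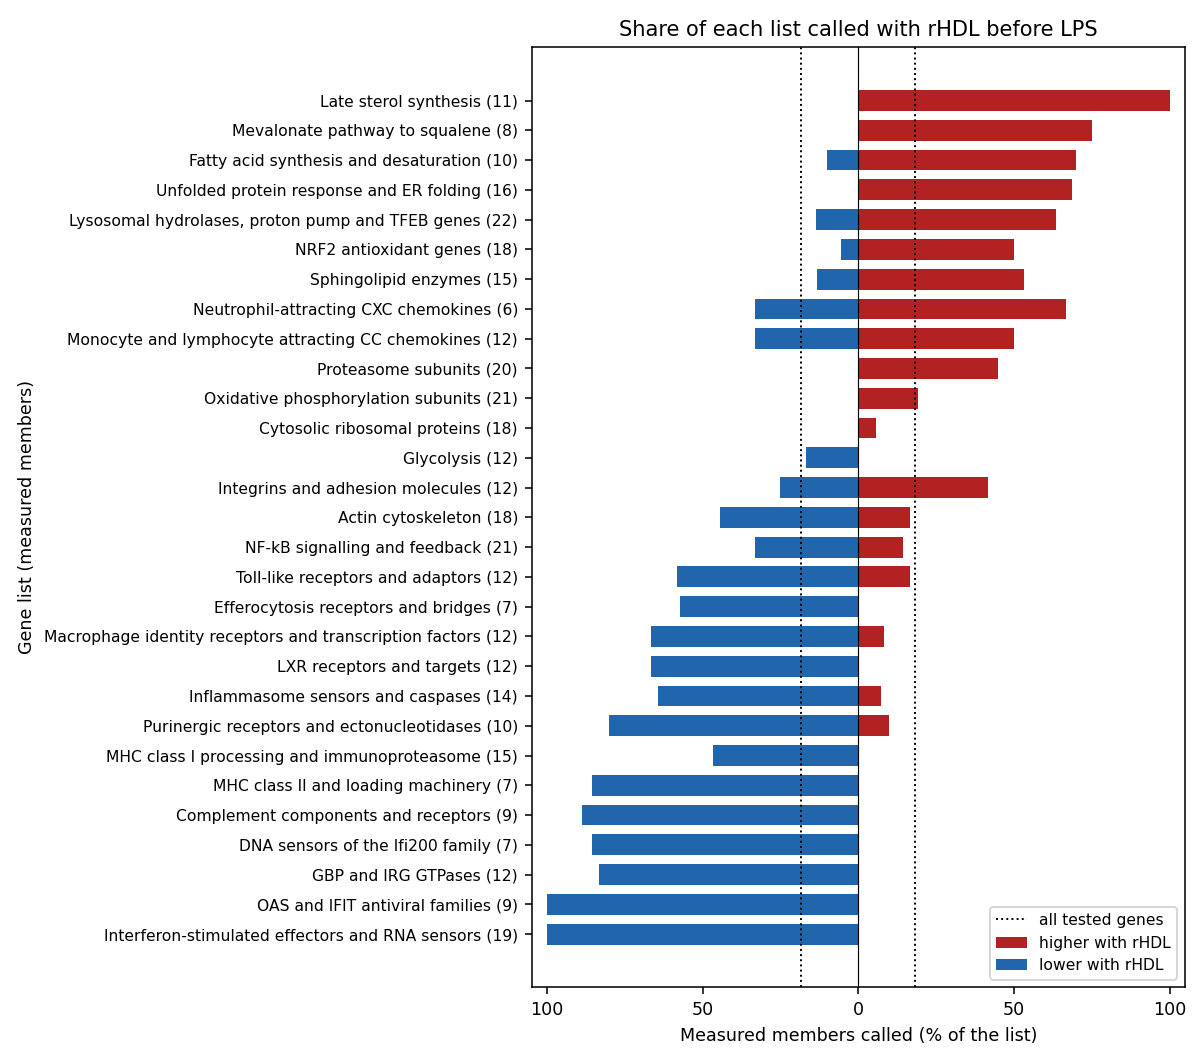
Share of the measured members of 29 gene lists that were called higher (red, to the right) or lower (blue, to the left) in rHDL cells than in LPS-only cells; the dotted lines mark the same shares over all tested genes, 18.1% and 18.4%. Both sterol lists lie to the right, the 4 interferon-driven lists at the bottom lie wholly to the left, and ribosomal protein genes stay under the dotted line.

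Chemokine genes moved in both directions. All 4 measured ligands of CXCR2 on neutrophils that macrophages make rose: Cxcl1 (1849, 2544 and 2374 CPM in rHDL cells, 321, 434 and 337 CPM in LPS-only cells), Cxcl2 (2.21 ± 0.10), Cxcl3 (1.92 ± 0.14) and Cxcl5 (1.77 ± 0.28). Ppbp (-2.52 ± 0.42) and Pf4 (-0.59 ± 0.16), of the same list but best known from platelets, fell. The interferon-dependent Cxcl9 and Cxcl10, which draw T cells through CXCR3, went the other way: Cxcl10 had 4918, 3037 and 3625 CPM in rHDL cells and 9227, 6170 and 8450 CPM in LPS-only cells (-1.04 ± 0.23), and Cxcl9 changed by -1.94 ± 0.31. Among 12 CC chemokines 6 rose, among them Ccl2 (836, 823 and 863 CPM in rHDL cells, 211, 147 and 169 CPM in LPS-only cells), Ccl17 (2.74 ± 0.18), a T cell attractant, and Ccl3 (1.07 ± 0.08). A further 4 fell, led by Ccl24, an eosinophil attractant, with 3.92, 3.41 and 2.33 CPM in rHDL cells and 26.5, 20.8 and 23.8 CPM in LPS-only cells; the count of falls was 1 without LPS-only library 1 and 2 without LPS-only library 3, rHDL library 2 or rHDL library 3. Of 8 chemokine receptors 3 fell and 2 rose, with 0 or 1 rise when any 1 library was left out (0 without LPS-only library 3). Ccr2, the receptor of CCL2, had 2.15, 1.39 and 0.903 CPM in rHDL cells and 13.1, 11.4 and 8.50 CPM in LPS-only cells (-2.85 ± 0.23), and Ccr3 changed by -1.51 ± 0.19. Ccr1 was called higher at 0.89 ± 0.29, and this call was lost without LPS-only library 1 (adjusted p = 0.124), LPS-only library 3 (0.0904) or rHDL library 2 (0.115).

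Cytokine genes also divided within families. In the IL-12 family, Il12b, the subunit that IL-12 and IL-23 share, rose (422, 422 and 448 CPM in rHDL cells, 171, 183 and 175 CPM in LPS-only cells), as did Il23a. Both subunits of IL-27 fell, Ebi3 by 0.66 ± 0.08 and Il27 by 0.58 ± 0.14 on the log2 scale. Oncostatin M and its receptor moved apart: Osm averaged 35.1 ± 2.6 CPM in rHDL cells and 11.4 ± 2.21 CPM in LPS-only cells (SD, n = 3 each; log2 change 1.61 ± 0.12), while Osmr fell as given above. Il6ra, the IL-6 receptor, changed by -1.52 ± 0.13, and Il6 did not pass the test, with 723, 540 and 558 CPM in rHDL cells and 661, 444 and 506 CPM in LPS-only cells (0.18 ± 0.19, edgeR adjusted p = 0.493). The growth factors of granulocytes rose, Csf2 to 14.3, 27.5 and 22.8 CPM in rHDL cells, against 1.81, 3.54 and 1.85 CPM in LPS-only cells (3.12 ± 0.37), and Csf3 by 1.40 ± 0.25, while Csf1r, the receptor for the macrophage growth factor, fell (-0.84 ± 0.06).

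In the IL-1 family, Il1a (0.64 ± 0.09) and Il1b (0.30 ± 0.08) rose. Il18 (-0.87 ± 0.17) and its binding protein Il18bp (-1.66 ± 0.25), which neutralises IL-18, both fell. Il10 had 243, 167 and 172 CPM in rHDL cells and 246, 278 and 295 CPM in LPS-only cells, with the highest rHDL library just under the lowest LPS-only one (-0.49 ± 0.12, adjusted p = 0.00606). Il4ra, the receptor of IL-4 and IL-13, fell (-1.26 ± 0.10), whereas Inhba, a subunit of activin A, and Tgfbr1, a TGF-beta receptor, rose by 1.16 ± 0.11 and 0.83 ± 0.14. Among 17 members of the TNF superfamilies 4 rose and 3 fell, near the shares of all tested genes (18.1% and 18.4%). Tnfsf10, the death ligand TRAIL, had 51.0, 33.4 and 43.4 CPM in rHDL cells and 242, 122 and 211 CPM in LPS-only cells (-2.16 ± 0.28), and the death receptor Fas fell (-0.71 ± 0.10). Edn1, endothelin, rose by 0.74 ± 0.10 and Thbs1, thrombospondin, fell by 1.42 ± 0.09 on the log2 scale.

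Interferon-stimulated genes fell without an exception among those that passed the test. All 9 measured OAS and IFIT genes, all 19 measured effectors and RNA sensors, 10 of 12 GBP and IRG GTPases and 6 of 7 DNA sensors of the Ifi200 family were lower in rHDL cells, and none was higher. The medians of these lists were -0.80, -0.74, -0.77 and -0.75, against 0.03 over all tested genes; scaled by library totals they were -0.68, -0.62, -0.65 and -0.63. These medians are falls of less than 2-fold. Gbp9, a guanylate-binding protein, had 140, 95.2 and 126 CPM in rHDL cells and 477, 273 and 395 CPM in LPS-only cells (-1.66 ± 0.21), and Ifit3, an antiviral IFIT protein, 776, 439 and 559 CPM in rHDL cells and 1798, 1106 and 1583 CPM in LPS-only cells (-1.34 ± 0.26). Pyhin1, of the Ifi200 family, had 750, 437 and 557 CPM in rHDL cells and 1951, 1283 and 1701 CPM in LPS-only cells. In each of these, library 1 was the highest and library 2 the lowest in both groups, so the order by replicate number was the same. The groups came nearest to each other between rHDL library 1 and LPS-only library 2.

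Other members spread widely in size. Tgtp2, an IRG GTPase with a near-identical neighbour, changed by -1.46 ± 0.17, Gbp5 by -0.58 ± 0.09, Igtp by -0.77 ± 0.14 and Irgm2 by -0.54 ± 0.11. Oas1g (-0.99 ± 0.12) and Oas2 (-0.80 ± 0.10), which make the activator of RNase L, Zbp1 (-0.93 ± 0.14), a sensor of left-handed nucleic acid, Trim30a (-0.74 ± 0.10) and Parp9 (-0.59 ± 0.09) lay between. Some calls among abundant members were weak. Ifit1 had 4600, 3157 and 3512 CPM in rHDL cells and 6065, 4598 and 5627 CPM in LPS-only cells, which overlap, and it lost its call (-0.53 ± 0.17, adjusted p = 0.0242) without LPS-only library 1 (adjusted p = 0.102), LPS-only library 3 (0.072), rHDL library 2 (0.103) or rHDL library 3 (0.0854). Isg15, the ubiquitin-like modifier (-0.52 ± 0.16, adjusted p = 0.022), lost it without the same libraries, with adjusted p of 0.0831, 0.0648, 0.0951 and 0.0821. With the replicate number as a block, none of the 208 genes named changed its result, Ifit1 and Isg15 among them, though the labels state no pairing.

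Some genes upstream of these fell as well. Both subunits of the type I interferon receptor were lower: Ifnar1 had 392, 419 and 403 CPM in rHDL cells and 721, 718 and 691 CPM in LPS-only cells, and Ifnar2 changed by -0.66 ± 0.07. Of 14 measured interferon regulatory factors, STATs and JAKs 6 fell and 2 rose. Stat2 (-0.64 ± 0.09), which carries the type I interferon signal, Irf2 (-0.88 ± 0.12) and Irf8 (-1.24 ± 0.17), a factor of macrophage development, fell. The 2 that rose were Irf4 (1.20 ± 0.24), best known from alternative activation of macrophages, and Stat6 (0.33 ± 0.07), which signals for IL-4.

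Interferon-stimulated genes are known for a promoter element, the ISRE, which STAT2 complexes and IRFs bind. The letters GAAA, any 2 bases and GAAA again were searched on both strands of the 250 bases before each RefSeq gene start (GRCm38.p6), and 3.46% of the 27025 genes in that table and 3.50% of the matched tested genes hold them. They were found in 5 of the 8 matched OAS and IFIT genes and in 4 of the 6 matched Ifi200 genes. Neighbours in these families share sequence, so their windows are not independent. Fewer than 80% of the GBP and IRG genes, of the effectors and of the genes raised (79.46%) or lowered (79.02%) could be matched, so shares over those sets are void. The windows of 4 genes that fell are printed 5′ to 3′ with the match in capitals, to show where it lies. They are Igtp (chr11:58199306-58199555, plus strand, match starting 34 bases before the gene), Irgm2 (chr11:58214727-58214976, plus strand, 64 bases), Ifit3 (chr19:34583279-34583528, plus strand, 156 and 122 bases) and Isg15 (chr4:156200819-156201068, minus strand, 3 overlapping matches from 78 to 66 bases).
Igtp: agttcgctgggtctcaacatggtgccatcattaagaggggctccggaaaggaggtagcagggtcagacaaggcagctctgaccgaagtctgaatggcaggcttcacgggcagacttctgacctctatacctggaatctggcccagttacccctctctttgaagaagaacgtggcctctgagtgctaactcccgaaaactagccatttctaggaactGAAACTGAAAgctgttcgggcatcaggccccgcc
Irgm2: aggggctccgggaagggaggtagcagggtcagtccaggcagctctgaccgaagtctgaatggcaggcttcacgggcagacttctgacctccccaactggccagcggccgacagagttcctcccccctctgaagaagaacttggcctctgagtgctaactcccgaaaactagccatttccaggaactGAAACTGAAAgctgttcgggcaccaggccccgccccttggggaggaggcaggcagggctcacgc
Ifit3: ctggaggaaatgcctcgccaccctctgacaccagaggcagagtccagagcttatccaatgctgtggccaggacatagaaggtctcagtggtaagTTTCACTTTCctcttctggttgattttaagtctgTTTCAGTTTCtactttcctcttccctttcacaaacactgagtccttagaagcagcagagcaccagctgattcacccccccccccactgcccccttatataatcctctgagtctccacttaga
Isg15: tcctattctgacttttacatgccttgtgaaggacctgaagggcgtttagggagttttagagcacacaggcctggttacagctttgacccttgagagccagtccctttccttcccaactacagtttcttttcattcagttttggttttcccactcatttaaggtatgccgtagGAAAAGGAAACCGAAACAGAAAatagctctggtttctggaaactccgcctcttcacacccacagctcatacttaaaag

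MHC class II genes, which present peptides to helper T cells, fell. Of 7 measured class II and loading genes 6 fell and 0 rose, with a median log2 change of -2.09. H2-Aa had 150, 77.7 and 96.7 CPM in rHDL cells and 987, 765 and 880 CPM in LPS-only cells, 8.11-fold lower (-3.02 ± 0.22, adjusted p = 1.79e-07). H2-Eb1 (-3.23 ± 0.24) and H2-Ab1 (-2.45 ± 0.21), which encode further chains, and the peptide loaders H2-DMa (-1.73 ± 0.17) and H2-DMb1 (-1.59 ± 0.21) fell with it. Among class I genes, of 15 measured 7 fell and 0 rose, led by Nlrc5, the class I transactivator (-0.87 ± 0.11), and Psmb9, of the immunoproteasome (-0.85 ± 0.18). Of 9 costimulatory genes, Cd86 (-1.63 ± 0.18) and Cd274 (-0.37 ± 0.07), a checkpoint ligand, were among 4 that fell and Pvr (0.79 ± 0.09) was the 1 that rose. The falls were 2 without LPS-only library 1 or rHDL library 2.

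Class II promoters are known for an X and a Y box near the gene start. The Y box letters CTGATTGG, on either strand, are in the windows of 4.43% of all RefSeq genes and 6.10% of the matched tested genes, and 2 of the 5 matched class II genes hold them, H2-Aa and H2-Eb1, a share left without comparison because under 80% of the list matched. The H2-Aa window (chr17:34287824-34288073, minus strand) is printed with its Y box, 51 bases before the gene, in capitals.
H2-Aa: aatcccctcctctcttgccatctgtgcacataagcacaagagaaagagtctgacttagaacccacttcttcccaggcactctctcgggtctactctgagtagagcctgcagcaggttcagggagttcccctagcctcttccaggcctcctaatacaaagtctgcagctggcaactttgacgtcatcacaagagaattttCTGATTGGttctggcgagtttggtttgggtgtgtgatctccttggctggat

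Many genes for the uptake of particles and for macrophage identity fell. Of 9 measured complement genes 8 fell and 0 rose (median -1.62). C1qa, C1qb and C1qc, the chains of C1q, changed by -2.39 ± 0.16, -1.98 ± 0.13 and -1.82 ± 0.13, and C1qa had 162, 101 and 111 CPM in rHDL cells against 657, 592 and 707 CPM in LPS-only cells. Cfp, properdin, fell by 1.62 ± 0.09 on the log2 scale. Among Fc gamma receptors, Fcgr1, the high-affinity one, had 181, 95.1 and 115 CPM in rHDL cells and 882, 657 and 834 CPM in LPS-only cells, and Fcgr4 (-1.67 ± 0.23) and Fcgr3 (-0.55 ± 0.07) fell with it. Cd300a, an inhibitory receptor for phosphatidylserine and phosphatidylethanolamine, was the 1 of that list that rose (153, 166 and 161 CPM in rHDL cells, 62.6, 78.7 and 69.4 CPM in LPS-only cells). Receptors and bridges for apoptotic cells had 4 of 7 lower and 0 higher: Stab1 (-1.51 ± 0.08), Mertk (-1.34 ± 0.14) and its ligands Pros1 (-1.08 ± 0.07) and Gas6 (-0.74 ± 0.13).

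Of 12 identity genes 8 fell and 1 rose. Siglec1, a sialic acid receptor, had 36.5, 35.8 and 42.7 CPM in rHDL cells and 340, 197 and 257 CPM in LPS-only cells (-2.79 ± 0.22), and the transcription factors Maf (-1.26 ± 0.09) and Spi1 (-0.38 ± 0.07) fell. Emr1, which encodes F4/80, changed by -0.55 ± 0.06. Cd68, the 1 that rose (0.51 ± 0.07), has only 34.8% of its exon bases to itself, so it was measured in part. Clec4a1, a C-type lectin, changed by -1.63 ± 0.14. Lyz2, lysozyme, one of the most abundant genes, had 7933, 5724 and 5690 CPM in rHDL cells and 14464, 12922 and 14360 CPM in LPS-only cells (-1.11 ± 0.13).

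Adhesion and tissue-remodelling genes divided. Icam1 (0.50 ± 0.07), which leukocyte integrins bind, and Itgb3 (2.37 ± 0.34), the integrin beta 3 chain, rose, and Vcam1 (-0.93 ± 0.10) and Itga4 (-0.81 ± 0.11), the alpha chain of its receptor, fell. Among metalloproteinases, Mmp13, collagenase 3, had 1202, 1132 and 1018 CPM in rHDL cells and 2856, 3008 and 2938 CPM in LPS-only cells (-1.39 ± 0.09). Mmp14, the membrane-bound activator of other metalloproteinases, changed by -1.05 ± 0.07, and Mmp12, macrophage elastase, was the 1 that rose (0.73 ± 0.14). S100a8 (2.65, 2.37 and 1.35 CPM in rHDL cells, 7.56, 7.17 and 7.52 CPM in LPS-only cells) and Mmp8 (-1.80 ± 0.23), which are best known from neutrophils, both fell, and they are the members of the neutrophil marker list that were tested. Of 18 actin genes 8 fell and 3 rose: Actb had 4537, 3651 and 3776 CPM in rHDL cells and 9019, 6827 and 8145 CPM in LPS-only cells, Fscn1, which bundles actin, changed by -1.15 ± 0.12, and Actn4 rose by 0.55 ± 0.09. The count of falls was 5 without rHDL library 2 and 4 with scaling by library totals, and that of rises was 1 without LPS-only library 3, rHDL library 2 or rHDL library 3 and 5 with library totals.

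Receptors for microbes were mostly lower. Of 12 Toll-like receptor genes and adaptors 7 fell and 2 rose. The endosomal receptors of nucleic acid Tlr3 (-1.15 ± 0.15), Tlr8 (-0.98 ± 0.11) and Tlr9 (7.33, 5.22 and 6.32 CPM in rHDL cells, 34.9, 16.7 and 24.9 CPM in LPS-only cells) fell, and the 2 that rose were Tlr13 (0.91 ± 0.09), which reads bacterial ribosomal RNA, and Tlr2 (0.33 ± 0.06). Myd88, the shared adaptor, had 372, 296 and 313 CPM in rHDL cells and 584, 504 and 576 CPM in LPS-only cells (-0.76 ± 0.10). Tlr4, the LPS receptor itself, was barely different, with 166, 169 and 168 CPM in rHDL cells and 196, 195 and 185 CPM in LPS-only cells. Its call (-0.20 ± 0.07, adjusted p = 0.0409) was lost when any 1 of the 6 libraries was left out (adjusted p 0.0547 to 0.124) and with scaling by library totals (-0.08, adjusted p = 0.483).

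Feedback and signalling genes did not move as a block. Of 21 NF-kB signalling and feedback genes 3 rose, 7 fell and 11 did not pass the test, and 4 fell without rHDL library 2 or with scaling by library totals. Cish, a cytokine-induced inhibitor, had 108, 109 and 107 CPM in rHDL cells and 39.3, 45.7 and 37.8 CPM in LPS-only cells (1.39 ± 0.11), and Nfkbid, an atypical inhibitor of NF-kB, changed by 0.66 ± 0.08. Phosphatases and Sprouty proteins that restrain MAP kinases had 4 rises and 6 falls among 13, and 3 falls with scaling by library totals. Dusp4 had 111, 153 and 160 CPM in rHDL cells and 34.1, 44.0 and 34.8 CPM in LPS-only cells, and Dusp3 (1.35 ± 0.12) and Spry1 (2.34 ± 0.24) rose too, whereas Dusp2 fell (-0.68 ± 0.10). Of 12 AP-1 and EGR factors 5 rose, among them Maff (1.38 ± 0.10), Ier3 (1.04 ± 0.10) and Egr2 (0.95 ± 0.13), and 3 fell, among them Jun (-0.73 ± 0.09) and Fos (-1.14 ± 0.18). Of 14 inflammasome genes 9 fell, such as the sensors Aim2 (-0.92 ± 0.13) and Naip5 (-0.77 ± 0.10), and the 1 that rose was Il1b.

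Prostaglandin and leukotriene enzymes and receptors passed the test about as often as other genes. Of 13 measured, 2 rose, 2 fell and 9 did not pass, near the shares of all tested genes (18.1% and 18.4%). Ptgs2, the inducible cyclooxygenase, had 14360, 14030 and 14099 CPM in rHDL cells and 10200, 10995 and 9969 CPM in LPS-only cells (0.45 ± 0.07), while Ptges, the synthase of prostaglandin E2 next in line, fell (-0.83 ± 0.11), as did Alox5, 5-lipoxygenase, at a low level (-2.52 ± 0.42). Nos2, the inducible nitric oxide synthase, changed by -0.45 ± 0.07, and Irg1, which makes itaconate, by -0.47 ± 0.10. Asl, which renews arginine, rose by 0.74 ± 0.07. Of 10 purinergic receptors and ectoenzymes 8 fell, 5 with scaling by library totals, and 1 rose, P2ry2 (0.57). Cd38, which degrades NAD, had 28.8, 29.7 and 25.8 CPM in rHDL cells and 88.6, 83.1 and 80.6 CPM in LPS-only cells (-1.58 ± 0.08), P2ry6, a receptor of UDP, changed by -0.81 ± 0.09 and Entpd1, CD39, by -0.54 ± 0.06.

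Many antioxidant and lysosomal genes rose. Of 18 NRF2 target and pathway genes 9 rose and 1 fell (median 0.44), the fall being lost without LPS-only library 1 or 3 or rHDL library 1 or 2, while 2 fell without LPS-only library 2. Srxn1, sulfiredoxin, had 360, 432 and 429 CPM in rHDL cells and 138, 154 and 145 CPM in LPS-only cells (1.48 ± 0.08). The subunits of glutamate-cysteine ligase, Gclm (1.30 ± 0.10) and Gclc (0.91 ± 0.15), which start glutathione synthesis, and Slc7a11, which brings in cystine for it (1.29 ± 0.15), rose together. Pgd, of the pentose phosphate pathway, rose by 0.61 ± 0.05. NRF2 is known to bind the antioxidant response element. Its core letters TGACNNNGC, on either strand, are in the windows of 11.52% of all RefSeq genes, 13.8% of the 7179 matched tested genes and 5 of the 15 matched genes of the list (33.33%). The letters TCACNCCAC of the sterol regulatory element, which SREBP is known to bind, are in 1.03% of the matched tested genes and in 0 of the 9 matched late sterol genes, which says only that these letters are not in those windows. In 3 other lists under 80% of the genes matched, so their shares are left without comparison: TCACNCCAC was found in 0 of 5 genes from acetyl-CoA to squalene, the TFEB letters TCACGTGA in 5 of 17 lysosomal genes and the AP-1 letters TGANTCA in 0 of 9 AP-1 and EGR genes. The Gclm window (chr3:122245307-122245556, plus strand) holds the match in capitals 134 bases before the gene.
Gclm: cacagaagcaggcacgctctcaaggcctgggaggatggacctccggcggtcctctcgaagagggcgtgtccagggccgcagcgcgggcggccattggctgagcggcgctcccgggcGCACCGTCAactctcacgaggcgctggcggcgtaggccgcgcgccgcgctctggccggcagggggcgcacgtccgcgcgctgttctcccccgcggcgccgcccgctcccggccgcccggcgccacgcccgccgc

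Of 22 lysosomal genes 14 rose and 3 fell (median 0.39), with 1 fall when LPS-only library 1 or 3 or rHDL library 2 or 3 was left out. Atp6v0d2, a subunit of the proton pump that macrophages and osteoclasts use, had 181, 211 and 210 CPM in rHDL cells and 91.0, 96.5 and 88.0 CPM in LPS-only cells (1.13 ± 0.11). Its ubiquitous counterpart Atp6v0d1 (0.79 ± 0.06), the lysosomal calcium channel Mcoln1 (0.87 ± 0.08) and the sialidase Neu1 (0.78 ± 0.08) rose as well. Of 13 autophagy genes 5 rose and 0 fell, among them Gabarapl1 (0.92 ± 0.10) and Map1lc3b (0.48 ± 0.07), both of the membrane-conjugated ATG8 family; scaling by library totals gave 8. Of 20 proteasome subunits 9 rose and 0 fell, 5 without LPS-only library 1, 4 without LPS-only library 3 and 14 with scaling by library totals. Psmb6 was the furthest (0.74 ± 0.09) and Psmd1 rose by 0.46 ± 0.06.

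Many endoplasmic reticulum chaperones rose and the ATF4 list split. Of 16 unfolded protein response and folding genes 11 rose and 0 fell (median 0.38): Dnajb9 (0.83 ± 0.10), Hyou1 (0.78 ± 0.10) and Creld2 (0.73 ± 0.09) led, and the abundant Calr, calreticulin, rose by 0.40 ± 0.06. Of 14 ATF4 stress genes 3 rose, Gdf15, Slc7a11 and Phgdh (1.36 ± 0.21), which begins serine synthesis, and 6 fell, among them Nupr1 (-1.53 ± 0.13) and Sesn2 (-0.78 ± 0.10); with scaling by library totals 5 rose. Of 13 cytosolic chaperone genes 4 rose, among them Hsp90aa1 (0.52 ± 0.08) and Hspa4l (0.50 ± 0.09), and 3 fell. The falls include Hspa1a and Hspa1b, a pair better read as 1 measurement.

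Few of the core metabolism genes measured passed the test, and 6 of the 18 glycolysis genes listed were not measured. Of 12 glycolysis genes 0 rose and 2 fell, of 21 subunits of oxidative phosphorylation 4 rose and 0 fell, and of 18 ribosomal protein genes 1 rose, Rps2 (0.35 ± 0.09). These shares lie near or below those of all tested genes, and those that rose depend on the scaling, since library totals gave 14 and 8 rises for the oxidative phosphorylation and ribosomal lists. The 4 oxidative phosphorylation rises became 2 without rHDL library 2 and 0 without any other library, and the 2 glycolysis falls became 1 without any library but LPS-only library 3. Of 10 hypoxia genes 5 fell and 1, Ndrg1 (0.45 ± 0.10), rose, with Pdk1, a brake on pyruvate oxidation, at -0.67 ± 0.09 and Hif1a at -0.40 ± 0.07. Iron genes had 6 rises and 3 falls among 13: Slc40a1, ferroportin, the iron exporter, had 17.6, 25.5 and 24.4 CPM in rHDL cells and 6.81, 7.90 and 6.43 CPM in LPS-only cells (1.67 ± 0.26), and Ftl1, ferritin light chain, changed by 0.64 ± 0.09. Of 18 cell cycle genes 4 rose and 3 fell, which is also near the shares of all tested genes. The cyclins Ccnd1 (-1.08 ± 0.15) and Ccnd2 (-0.93 ± 0.11) were lower and Ccne1 (0.69 ± 0.15) was higher.

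The response to LPS itself was measured in the other table, where 6985 of 9576 tested genes (72.9%) differed between LPS and untreated cells (35.3% higher with LPS), and 8765 genes were tested in both tables. Of 1599 genes lower in rHDL cells, 1024 (64.0%) were LPS-raised and 310 (19.4%) LPS-lowered. Of 1606 genes higher in rHDL cells, 507 (31.6%) were LPS-raised and 696 (43.3%) LPS-lowered, against 32.4% and 37.8% of the 5560 genes that rHDL did not call. The tables share no library, so the LPS classes come from other libraries than the rHDL calls. Whether the cells came from separate cultures or animals is not stated in the labels. The classes depend on the scaling, since library totals gave 1532 genes higher and 6640 lower with LPS in place of 3380 and 3605, and moved the median log2 change with LPS to -0.77 in place of -0.05. With LPS called in that way, 45.0% of the genes lower in rHDL cells were LPS-raised and 40.8% LPS-lowered, against 12.3% and 77.6% of the genes higher in rHDL cells and 10.6% and 73.6% of those not called. Strongly LPS-raised genes were found among both: Cxcl1 changed by 8.78 and Il12b by 10.01 with LPS and were higher in rHDL cells, and Vcam1 changed by 8.00 and Fscn1 by 7.50 with LPS and were lower in rHDL cells. Others that were lower in rHDL cells had an LPS change near 0, such as Abcg1 (-0.04), Cfp (-0.04) and Pltp (-0.06).

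**Figure D4:**
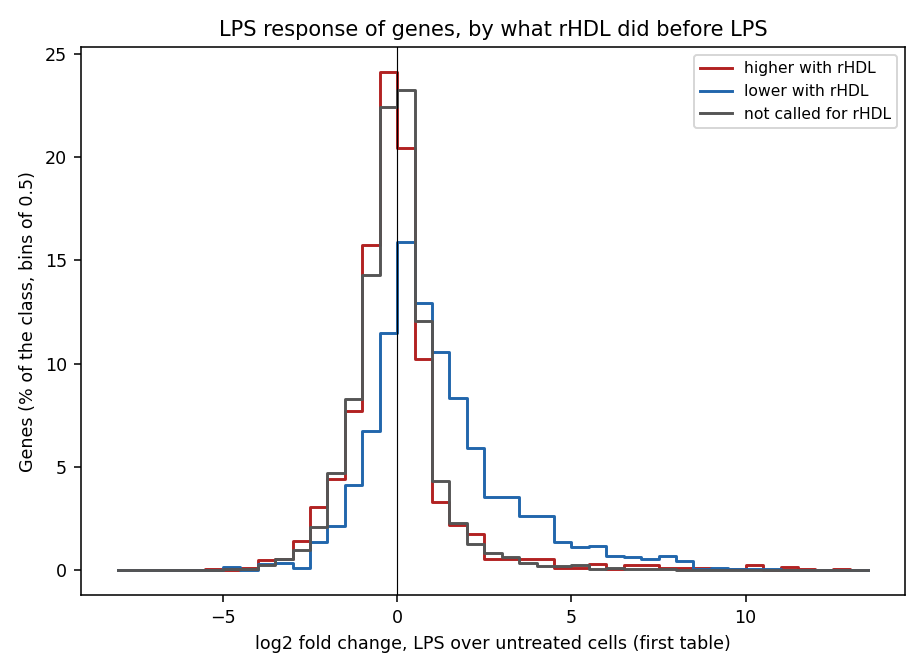
Distribution of the log2 fold change of LPS over untreated cells (first table, TMM scaling, bins of 0.5) for genes that were higher in rHDL cells (red), lower (blue) or not called (grey), as a percentage of each class. The blue line has the longer right side: 64.0% of the genes lowered were LPS-raised, against 31.6% of the genes raised and 32.4% of those not called.

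The same rHDL treatment after cholesterol loading gave 91 called genes (1.02%), 38 higher (0.424%) and 53 lower (0.591%), and these come from other libraries than the comparison above. Counts after loading moved with the setting: 277 genes were higher and 209 lower with the replicate number as a block, 90 and 86 with no low-count filter, and 10 to 68 and 20 to 55 with 1 library left out. The difference between the rHDL effects was tested in the same fit and passed for 2704 genes (30.2%), among them 2394 of the 3275 genes called without loading (73.1%). Over those 3275 genes the median size of the log2 change was 0.56 without loading and 0.12 after it. The effect on Gdf15 was 3.10 without loading and -0.29 ± 0.12 after it, where loaded cells had 78.1, 84.6 and 72.8 CPM with rHDL and 87.5, 110 and 90.6 CPM without. For H2-Aa, of MHC class II, the effects differed by -3.19 ± 0.30 (adjusted p = 4.63e-06), and it did not pass the test after loading.

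Of the genes called in both settings, 28 moved in the same direction and 33 in the opposite one. Sterol synthesis genes were among the first kind, with 6 of 11 late enzymes higher both without and after loading. Of the 8 genes from acetyl-CoA to squalene, 2 were higher in both. The medians after loading were 0.83 for the late list and 0.24 for the early one, beside 1.39 and 1.08 without loading. The difference between effects passed for 6 of the late genes and 2 of the early ones. Cyp51 had 34.5, 38.2 and 31.9 CPM in loaded cells with rHDL and 14.9, 16.1 and 13.2 CPM in loaded cells without, beside 329, 297 and 307 CPM in rHDL cells and 116, 150 and 140 CPM in LPS-only cells. Its effect after loading was 1.24 ± 0.12, beside 1.20 ± 0.10 without loading, and the difference did not pass the test (-0.05 ± 0.15, adjusted p = 0.847). Abca1 did not pass the test after loading (-0.44 ± 0.11, adjusted p = 0.0944), with 1014, 1435 and 1398 CPM in loaded cells with rHDL and 1711, 1799 and 1717 CPM in loaded cells without. Endoplasmic reticulum chaperones made up part of the second kind. Of the 16 in the list 10 fell after loading and 0 rose, 11 rose without it, and 9 did both. Dnajb9 had 18.7, 18.0 and 16.9 CPM in loaded cells with rHDL and 32.1, 31.7 and 28.9 CPM in loaded cells without. Scd1, a desaturase, rose slightly without loading (0.69 ± 0.21, a call lost without LPS-only library 1 or 2 or rHDL library 3, adjusted p 0.0617 to 0.0827) and fell steeply after it, to 1.64, 2.33 and 3.24 CPM in loaded cells with rHDL, against 22.8, 26.2 and 23.6 CPM in loaded cells without (-3.32 ± 0.18). Mmp13 did the reverse, with 2428, 2639 and 2200 CPM in loaded cells with rHDL and 1437, 1683 and 1544 CPM in loaded cells without (0.64 ± 0.08).

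**Figure D5:**
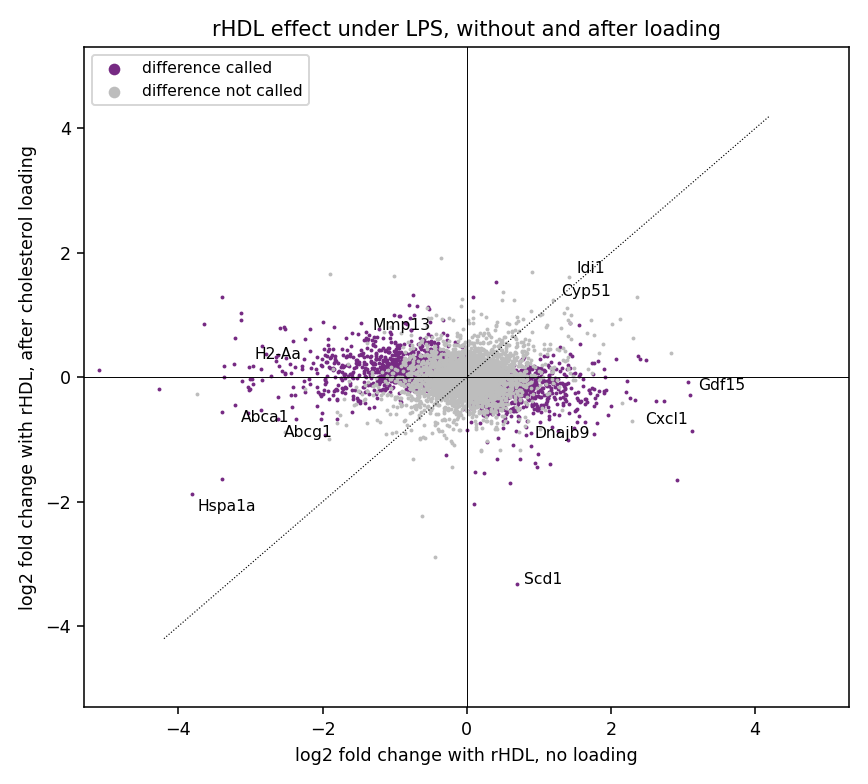
log2 fold change with rHDL in cells without loading (horizontal) and after cholesterol loading (vertical) for each tested gene, purple where the difference between them passed the test (2704 genes) and grey elsewhere; the dotted line marks equal effects. Points spread along the horizontal axis, Cyp51 and Idi1 lie near the line, and Scd1 lies far below it.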

How the data were processed

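Per the submitters' processing notes, the authors used cutadapt, HISAT2, featureCounts of Subread and DESeq2 with mm10; no versions were found. The authors' count tables give unnormalised counts for 32850 transcript rows. Not one of the 6696 rows lacking exon bases of their own held a read, so reads over several rows were dropped and genes with overlapping transcripts are measured in part. The authors' deposited comparison table gives log2 fold changes, adjusted p-values and a ratio of RPKM values, and its largest p-value is 0.0497.

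Rows were summed by gene symbol (24059). The 12 libraries of the second table, 4 groups of 3, were fitted together in edgeR 4.0.16 (R 4.3.3) with filterByExpr at a minimum count of 10, TMM scaling, quasi-likelihood F tests and a Benjamini-Hochberg adjusted p under 0.05; the first table was fitted apart likewise. Strand is not stated for the counting, so antisense or overlapping genes may share reads. The 69 gene lists are described by counts and medians, with no test. Precision depends on the 3 libraries per group and on the counts per gene: 21.8% of genes were called in the lowest of 4 equal bins of mean level and 51.4% in the highest.

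The members, lists, rules and alternatives were chosen with earlier results of these data known. Named genes come from the 12 largest rises and falls (mean log2 CPM 3 or more), from the 4 members of a list with the lowest p, from a fixed panel, and from the 8 lowest p of the difference between effects. Some that this rule takes are not reported here, and others were named after their values were seen, to spell out a small count or because a promoter or LPS response is given. Alternatives were DESeq2 1.42.0, its size factors, library totals, other low-count filters, a block on the replicate number, a 1.5-fold minimum, a fit of the compared groups alone, genes with a single row, leaving out each library, and thinned counts.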

Additional observations from a re-analysis of the deposited data

Results flagged for a closer look

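The rHDL effect differed between cells without and after cholesterol loading for 2704 genes by the test of the difference in edgeR. Differences are given as the effect without loading minus the effect after it, on the log2 scale. Scd1 (4.01) rose without loading and fell after it. Gdf15 (3.39), Cxcl1 (3.01) and Cxcl2 (2.44) rose without loading and were not called after it. H2-Aa (-3.19), Abca1 (-2.77), Dgka (-1.72), a diacylglycerol kinase, and Gda (-1.71), guanine deaminase, fell without loading and were not called after it. Abcg1 (-1.94) and Hspa1a (-1.95) fell in both, less after loading. Mmp13 (-2.03) fell without loading and rose after it, while Dnajb9 (1.62), Hyou1 (1.25) and Calr (0.85) rose without loading and fell after it. Sqle (0.72) and Msmo1 (0.56) rose in both, less after loading. Single libraries were not tested for their distance from their group, since that test needs 4 or more samples and groups hold 3.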

How the results depend on the processing

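With 3 libraries a group, a 1.5-fold minimum left 226 genes higher and 432 lower, and library totals gave 2507 higher. That minimum moved 85 of 110 list counts by over 1.5 times and ended the call of 75 of the 208 genes named, while library totals moved 23 list counts and leaving out 1 library 8 to 18. Each other setting moved 1 to 13 list counts. Outside the minimum and library totals, the counts of all genes higher and lower stayed within 1.5 times. They were 1222 to 1532 higher and 1341 to 1622 lower when 1 library was left out. With counts thinned to the smallest library, an alternative chosen after seeing the data, they were 1513 and 1641. Numbers shared by libraries of both groups are only a hint of pairing, since same-numbered libraries correlated in their deviations at 0.154, 0.243 and -0.0302; with the replicate number as a block 2036 genes were higher and 1974 lower, and 277 and 209 after loading.

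Counts after loading were small and moved most: 38 higher and 53 lower became 89 higher with DESeq2, 25 higher with library totals, 19 and 23 with the compared groups alone, 90 and 86 with no low-count filter, 1 and 4 with the 1.5-fold minimum, and 10 to 68 and 20 to 55 with 1 library left out. The fewest were found without loaded LPS-only library 2 (10 and 20), and the most rises (68) without loaded rHDL library 1. For the difference between effects, library totals gave 2124 higher and the 1.5-fold minimum 197 and 395; for LPS against untreated cells, library totals gave 1532 and 6640 and the 1.5-fold minimum 1906 and 2138. The cause was not tested.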

Other observations

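Some further genes were chosen after their values were seen. Vwf, von Willebrand factor, had 106, 120 and 133 CPM in rHDL cells and 54.7, 56.1 and 56.7 CPM in LPS-only cells (1.10 ± 0.12), and makes up most of the stromal and endothelial marker sum. Dgka, which removes diacylglycerol, had 19.2, 17.3 and 18.3 CPM in rHDL cells and 52.8, 54.3 and 54.8 CPM in LPS-only cells (-1.56 ± 0.08), one of 2 falls among 8 measured protein kinase C and diacylglycerol kinase genes.

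A fit of single transcript rows in place of gene sums, made after seeing the data, tested 9128 rows. Of 191 genes with 2 or more tested rows, 2 had rows called in opposite directions. For Arap1, which encodes a regulator of small GTPases, the row of the longer span (chromosome 7, 101348069 to 101412586, plus strand) had a log2 change of 0.34 ± 0.12 (edgeR adjusted p = 0.0419). The row of the shorter one (101378122 to 101412586) was lower (adjusted p = 6.86e-05), and it had 11.4, 10.6 and 10.7 CPM in rHDL cells and 24.8, 19.9 and 20.9 CPM in LPS-only cells. For Eif4e2, a cap-binding protein (chromosome 1, plus strand), the row from 87213914 to 87240488 changed by -0.22 ± 0.08 (adjusted p = 0.0375) and the row from 87213939 to 87228858 by 0.41 ± 0.15 (adjusted p = 0.0469). Rows count only reads on exon bases that no other row covers, so they compare parts of a gene.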
